A study of Mus musculus with 30 samples.

Results

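Hedgehog pathway genes were followed here through the differentiation of mouse induced pluripotent stem cells (iPSCs) into retinal organoids. The set holds 9 of the 45594 genes in the deposited tables, taken by gene symbol: the ligands Shh and Ihh, the co-receptor Gas1, the receptor Ptch1, the ligand trap Hhip, the signal transducer Smo, and the transcription factors Gli1, Gli2 and Gli3. The set was proposed knowing that Gli1 is briefly higher at day 12, so that feature of Gli1 is described below without a test.

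Polyadenylated RNA was sequenced on 10 days of differentiation, numbered from D0 (the undifferentiated cells) through D4 and D7 and then at steps of 2 to 7 days up to D32, with 3 libraries a day that the labels call biological replicates. All came from a single iPSC clone, wild type and carrying the Nrl-GFP reporter (Nrl is a rod photoreceptor transcription factor), which had been reprogrammed from mouse embryo fibroblasts with doxycycline-inducible Oct3/4, Sox2, Klf4 and c-Myc lentiviral vectors. The D0 libraries are iPSCs kept on feeder cells with LIF, the D4 libraries are pools of 36 whole aggregates, and from D7 the neural retina was dissected out of the organoids, pooling 30 organoids at D7, 20 at D10 and 12 on each later day. Oxygen was 5% until D10 and 20% afterwards. The medium changed at D7 (N2 supplement), at D10 (taurine, 9-cis retinal and insulin-like growth factor 1 added) and at D26 (B27 supplement without vitamin A and serum added), so a step across any of these days cannot be told apart from the change of medium or oxygen. No added Hedgehog agonist or antagonist is named in the labels.

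In the Hedgehog pathway, a secreted ligand binds the membrane receptor Ptch1 and relieves its block on Smo, which then acts through the primary cilium to favour activator over repressor forms of the Gli proteins. Gli1, Ptch1 and Hhip are widely used as transcriptional readouts of the pathway, and the products of the last 2 restrain it. In the developing mouse retina, Shh made by ganglion cells acts on progenitors, while Gli3 acts largely as a repressor.

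The libraries held 16.77 M to 24.53 M estimated counts (M for mega; median 19.23 M). Levels below are the authors' deposited CPM (read counts as a share of the library's total, scaled for library composition). Before that scaling, a floor of 3 counts in 1 library lies between 0.122 and 0.179 CPM. Scaling moves this floor, and in D4 replicate 2 the 3 counts of Ihh stood at 0.235 CPM. The scaling factors, computed here by the trimmed mean of M values (TMM), ran from 0.524 in D4 replicate 2 to 1.162. The libraries also fall into 2 sets by the share of Rpl3 reads assigned to its processed copies: 12 to 31.8% in 12 libraries (all of D0 and D7 and replicate 2 of D10 to D25) and 70.9 to 86.5% in the other 18. Fitted beside the days, this set difference passed the test for 0 of the 8 tested members, where 3.01% of all genes passed (edgeR adjusted p from 0.25 for Smo to 0.91 for Gli1). That count lies near the share of all genes. Only D10 to D25 hold libraries of both sets and inform this term. In D4 against D0 or D7 the set cannot be told apart from the day, and other comparisons of D0, D4, D7 or D32 can be partly confounded with it. Of 12 retinal progenitor markers examined, 6 exceeded 1 CPM on average at D0 and all 12 did on every day from D4. Their level was not constant over those days, with sums of 539.7 to 961 CPM at D4, 4056 to 4923 CPM at D15 and 788 to 888 CPM at D32.

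Of the 9 members, 8 passed the filter on low counts and were tested with edgeR's quasi-likelihood test, with p-values adjusted by the Benjamini-Hochberg method over all 19897 tested genes. Ihh did not pass. Leaving Gli1 aside, 7 of 7 members changed over the 10 days, where 91.4% of all tested genes did, and 7 of 7 changed over the 8 neural retina days, where 76.1% of all genes did. Both counts lie near those backgrounds. Because the libraries are bulk RNA, fewer cells of a type and less RNA per cell cannot be told apart in any of these changes.

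**Figure D1:**
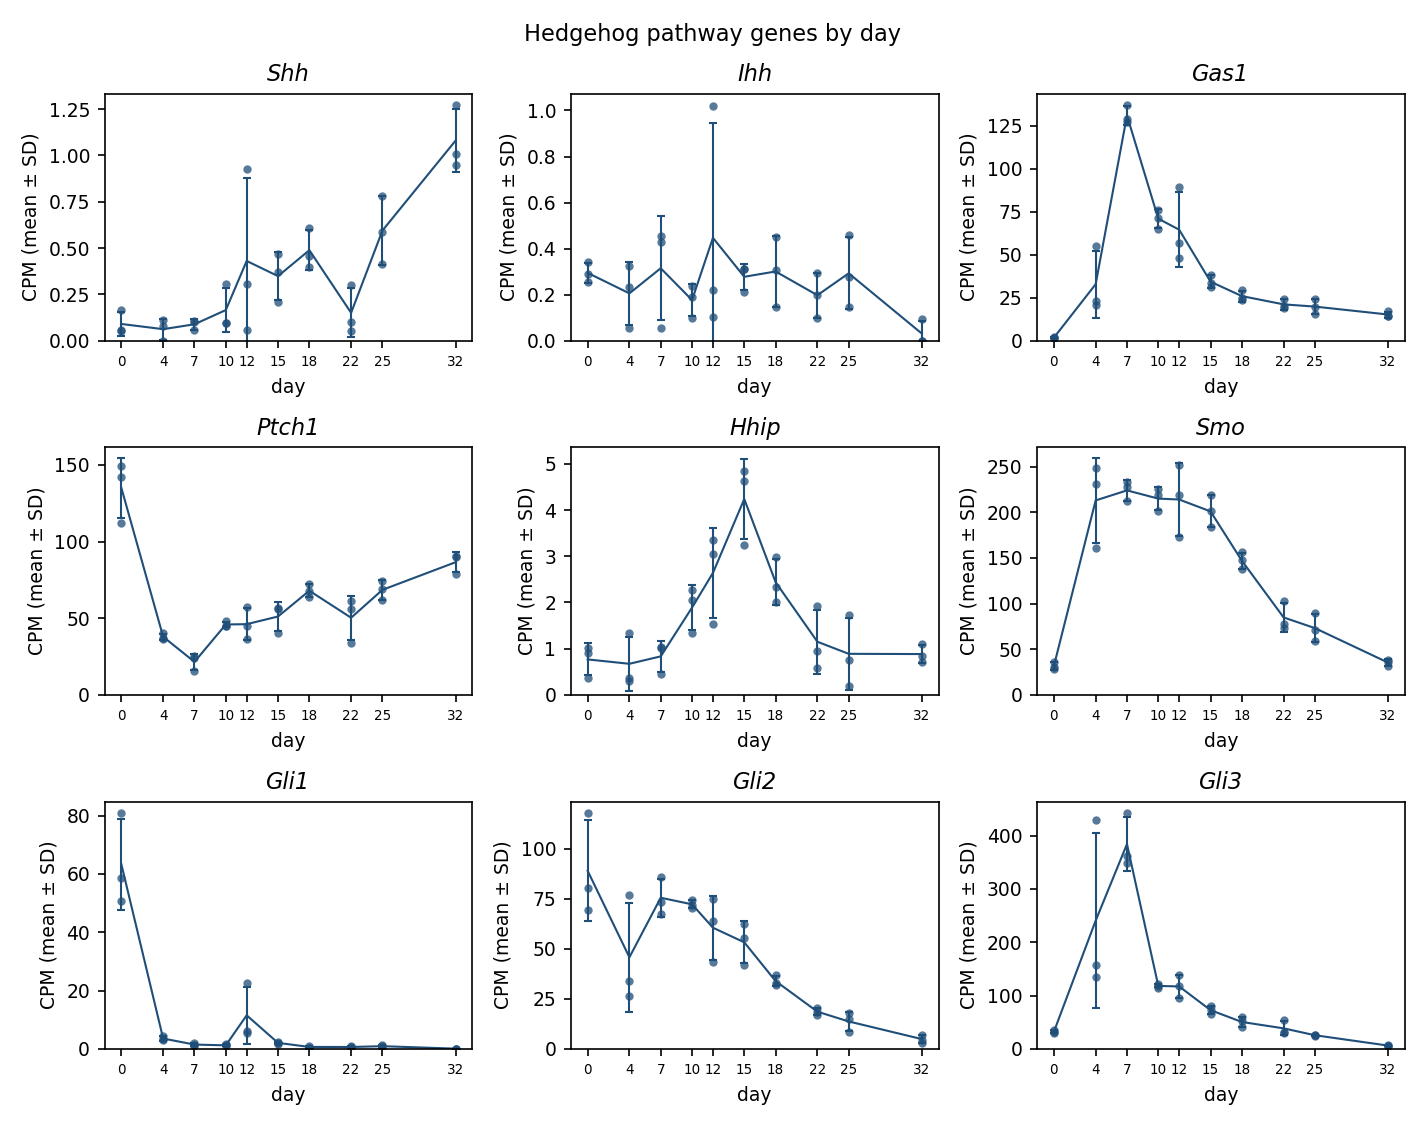
Levels of the 9 genes in CPM (linear axes from 0, 1 scale per gene) against day of differentiation; points are the 3 libraries of a day, lines join the day means, and bars are ± SD cut off at 0. Gas1 and Gli3 are highest at D7, Smo stays near its highest level from D4 to D15, Ptch1 and Gli1 are highest at D0, and Shh is highest at D32.

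The ligands were scarce on every day. Shh, the ligand made by retinal ganglion cells, stood at 0.164, 0.0516 and 0.0574 CPM in the 3 D0 libraries and at 0.103, 0.109 and 0.0563 CPM at D7, which is 1 to 3 counts a library and at or about the floor. At D18 it stood at 0.398, 0.609 and 0.460 CPM (9 to 12 counts), and at D32 at 0.946, 1.01 and 1.27 CPM (20 to 26 counts). Every D32 library lay above every library of the other days, and the 9 remaining days overlap their neighbours in the order of levels. Shh rose from D7 to D18 by 2.34 ± 0.75 (log2, SE; edgeR adjusted p = 0.012), although with D7 replicate 3 left out the change was 2.09 and adjusted p = 0.051. From D18 to D32 the difference was 1.18 ± 0.56 (edgeR adjusted p = 0.093). That last comparison passed with limma on CPM plus 1 (adjusted p = 0.0086) and when only its 6 libraries were fitted (adjusted p = 0.015). Ganglion cell markers summed to 434 to 536 CPM at D18 and to 172 to 197 CPM at D32. Of the 12 markers, 10 fell and 1 rose between those days, where 44.3% of all genes changed. The cells that hold Shh at D32 were not tested.

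Between those days the Shh libraries scattered widely. At D12 it stood at 0.927, 0.309 and 0.0571 CPM, or 20, 6 and 1 counts, so that replicate 1 held most of the day's reads. At D22 the libraries held 0.0997, 0.302 and 0.0504 CPM, overlapping those of D0, and no step between neighbouring days passed the test for Shh (the lowest edgeR adjusted p was 0.13, for D25 against D22).

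Ihh, the ligand best known from growing cartilage, never exceeded 18 counts in a library. Its day means lay between 0.177 and 0.447 CPM from D0 to D25, and each of these days overlapped its neighbours in the order of levels. At D32 its libraries held 2, 0 and 0 counts. Before the scaling for composition, 0 counts allow up to 0.169 CPM in a library. On the scaled levels the 2 counts of replicate 1 stood at 0.0951 CPM. Summed over libraries, Ihh had 19 counts at D18 and 2 at D32, a ratio of 9.47 with an exact 95% interval of 2.28 to 83.8 that covers counting error only. Fitted without the filter on low counts, Ihh differed between D18 and D32 (edgeR adjusted p = 0.025). In that fit no other comparison of Ihh passed, and D32 against D25 gave adjusted p = 0.051.

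The third ligand gene, Dhh, is no member of the set but reached the highest CPM of the 3 ligand genes (a level not corrected for length). It stood at 0.115 to 0.382 CPM at D0, at 0.443 to 0.813 CPM at D18 and at 3.99, 3.76 and 3.72 CPM at D32. Dhh rose by 2.07 ± 0.60 from D7 to D18 (edgeR adjusted p = 0.0058) and by 2.61 ± 0.47 from D18 to D32 (edgeR adjusted p = 5.6e-05). Dhh, best known from Schwann cells and the testis, thus held 239 of the D32 reads, against 68 for Shh and 2 for Ihh.

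**Figure D2:**
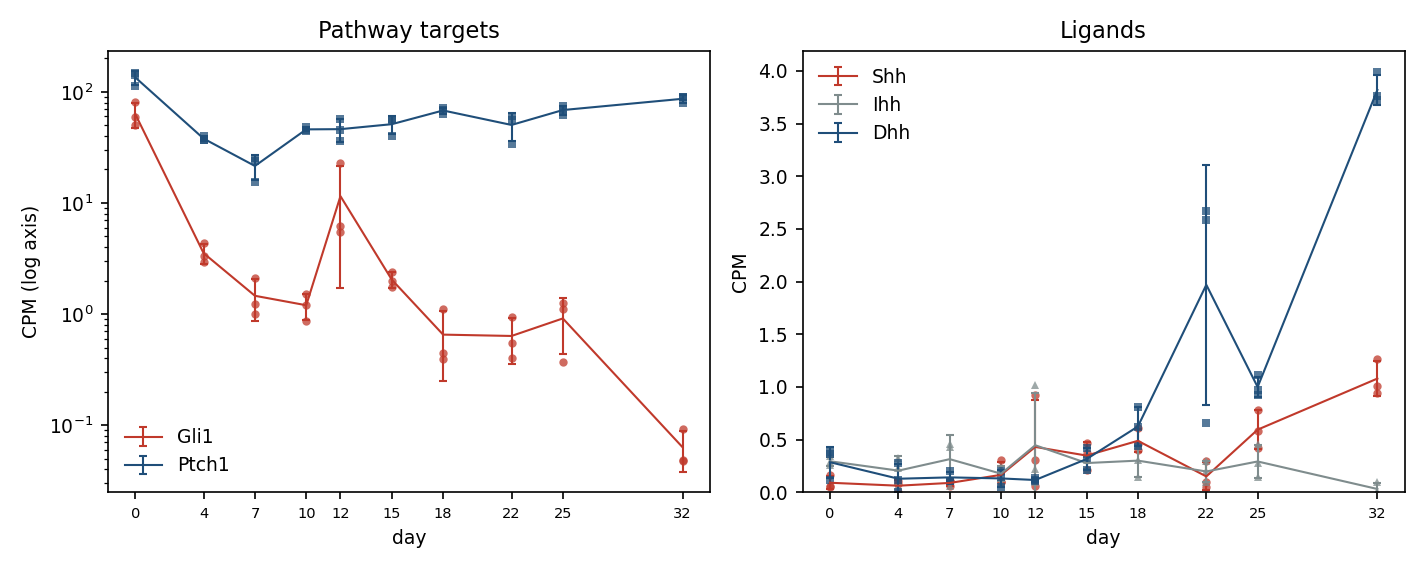
Left, CPM of Gli1 (red circles) and Ptch1 (blue squares) by day on a log axis; right, CPM of the ligands Shh, Ihh and Dhh by day on a linear axis from 0. Points are libraries, lines join day means and bars are ± SD (n = 3 each); Gli1 lies below Ptch1 on every day, by least at D0 and D12, and only Dhh exceeds 1.5 CPM among the ligands.

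Gas1, a membrane co-receptor that helps cells respond to low ligand, was nearly silent in iPSCs and highest in the first dissected retina. Its libraries held 2.13, 1.81 and 1.55 CPM at D0, 20.6, 22.9 and 55.2 CPM at D4, and 129, 127 and 137 CPM at D7. By D32 they held 14.4, 17.3 and 14.2 CPM. The D0, D4 and D7 groups do not overlap, and D7 lies above every other day. Gas1 rose by 6.14 ± 0.33 from D0 to D7 (edgeR adjusted p = 8.5e-14), the largest change of any member over that span. It then fell by 2.33 ± 0.27 from D7 to D18 (edgeR adjusted p = 9.1e-08). The later drop from D18 to D32, of 0.76 ± 0.26, passed narrowly (edgeR adjusted p = 0.021) and was lost without D18 replicate 3 (adjusted p = 0.076), D32 replicate 1 (0.065) or D32 replicate 3 (0.068), and with scaling by library size alone (0.099).

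Ptch1, the receptor that also serves as a readout of the pathway, was high at both ends of the course and low at D7. It stood at 149, 142 and 112 CPM at D0, at 36.9, 36.5 and 40.1 CPM at D4, and at a mean of 21.5 ± 5.41 CPM (SD, n = 3) at D7. From D10 to D25 the day means lay between 45.9 and 68.5 CPM, and at D32 the libraries held 90.3, 79.1 and 90.2 CPM. The D0 libraries lie above all others, the D32 libraries come next, and D7 lies below every other day. Ptch1 fell by 2.66 ± 0.20 from D0 to D7 (edgeR adjusted p = 3.4e-11). It rose by 1.11 ± 0.19 from D7 to D10 (edgeR adjusted p = 7.5e-05) and by 1.67 ± 0.20 from D7 to D18 (adjusted p = 1.2e-07). Between D18 and D32 the difference of 0.36 ± 0.19 did not pass (edgeR adjusted p = 0.12), but it did when only those 6 libraries were fitted (0.38, adjusted p = 0.014).

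Hhip, which binds and traps ligand at the cell surface, was low throughout and peaked in the middle of the course. Its day mean was 0.767 ± 0.348 CPM (SD, n = 3) at D0 and 0.833 ± 0.335 CPM at D7. The D15 libraries held 4.85, 3.25 and 4.62 CPM, and the D32 libraries 0.833, 0.714 and 1.10 CPM. The D15 libraries overlapped only those of D12 and lay above every library of the other days. Hhip rose from D7 to D18 by 1.57 ± 0.56 (edgeR adjusted p = 0.024) and fell by 1.45 ± 0.56 from D18 to D32 (adjusted p = 0.035). Both calls are fragile at 8 to 67 counts a library. The rise was lost with the library set as a term (1.14, adjusted p = 0.096), without D7 replicate 3 (adjusted p = 0.12) and without D18 replicate 1 (0.076). The fall was lost with scaling by library size alone (adjusted p = 0.055) and without D18 replicate 1 (0.11), D18 replicate 2 (0.058), D32 replicate 1 (0.093) or D32 replicate 2 (0.12).

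Because Ptch1 and Hhip are textbook Gli targets, the promoter windows of the members were searched for the Gli consensus. The sequences below are the 250 bases before the RefSeq start of each gene (GRCm38.p6, minus strand, written 5′ to 3′ along the gene): Ptch1 at chr13:63565736-63565985 and Hhip at chr8:80058009-80058258. No letters are capitalised because no match lies in them.
Ptch1: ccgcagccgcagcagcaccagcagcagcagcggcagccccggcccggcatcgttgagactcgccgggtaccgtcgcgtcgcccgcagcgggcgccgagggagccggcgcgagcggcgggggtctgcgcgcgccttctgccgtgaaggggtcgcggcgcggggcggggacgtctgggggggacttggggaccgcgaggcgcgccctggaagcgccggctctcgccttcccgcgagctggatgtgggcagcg
Hhip: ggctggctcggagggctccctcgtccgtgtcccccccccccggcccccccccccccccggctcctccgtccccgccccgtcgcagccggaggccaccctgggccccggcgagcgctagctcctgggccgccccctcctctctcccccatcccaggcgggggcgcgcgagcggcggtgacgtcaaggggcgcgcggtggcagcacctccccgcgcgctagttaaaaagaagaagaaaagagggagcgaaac
The motif searched was GACCACCCA, on both strands (TGGGTGGTC on the other), over windows of 300 bases that run from 250 before to 50 after the start. Windows were at hand for 7 members (all but Shh and Gli1), and none of the 7 held the motif, either exactly or with 1 mismatch. Across all 32851 windows, 83 (0.253%) held it exactly and 6.74% within 1 mismatch, so its absence from 7 windows of this length says only that these letters are not there. The Ptch1 window is set on base 63565735, where the deposited transcript table starts Ptch1-001, which took 8.79 to 20.2% of Ptch1 counts by day, whereas Ptch1-005, which starts at 63564535, took 75.9 to 88.2%.

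Smo, the membrane protein that passes the signal inward, was switched up early and declined in the second part of the course. It stood at 27.8, 35.9 and 30.8 CPM at D0 and at 161, 231 and 248 CPM at D4. The day means of D4, D7, D10, D12 and D15 lay between 201 and 224 CPM and overlapped one another. At D18 the libraries held 138, 148 and 156 CPM, and at D32 38.1, 36.5 and 31.2 CPM, overlapping the libraries of D0. Smo rose by 2.82 ± 0.17 from D0 to D7 (edgeR adjusted p = 9.4e-13). It fell by 0.60 ± 0.16 from D7 to D18 (edgeR adjusted p = 0.0035) and by 2.05 ± 0.17 from D18 to D32 (adjusted p = 3.2e-10).

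Gli1, the activator whose own transcription is a target of the pathway, was abundant only in the iPSC libraries. It stood at 50.6, 58.7 and 80.8 CPM at D0, at 3.32, 2.94 and 4.32 CPM at D4, at 1.23, 2.13 and 1.01 CPM at D7 and at 1.21, 0.872 and 1.52 CPM at D10. At D12 its libraries held 22.7, 5.46 and 6.17 CPM, or 502, 107 and 109 counts. All 3 D12 libraries lay above every library from D4 on that is not of D12 and below those of D0, and replicate 1 stood well above the other 2. By D15 it stood at 2.41, 1.99 and 1.74 CPM, from D18 to D25 no library exceeded 1.25 CPM, and at D32 the libraries held 1, 2 and 1 counts.

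In contrasts between other days, where D12 enters only the gene's estimate of spread, Gli1 fell by 5.44 ± 0.51 from D0 to D7 (edgeR adjusted p = 1.4e-09) and was lower at D32 than at D18 by the same test (adjusted p = 0.0029). The latter call was lost with limma on CPM plus 1 (adjusted p = 0.13). Its 40 counts at D18 against 4 at D32, summed over libraries, give a ratio of 9.97 with an exact 95% interval of 3.60 to 38.4 for counting error alone. Between D7 and D18 the difference was -1.17 ± 0.53 (edgeR adjusted p = 0.072), and it passed with DESeq2 (adjusted p = 0.043), limma on CPM plus 0.1 (0.049), library set 2 alone on D10 to D25 (0.019), and without D7 replicate 3 (0.049), D12 replicate 1 (0.023) or D18 replicate 2 (0.022).

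The iPSCs were kept on feeder cells, and whether the D0 libraries hold feeder RNA is not given in the labels. Fibroblast markers summed to 645, 1032 and 1680.2 CPM in D0 replicates 1, 2 and 3, with 9 of 10 markers above 1 CPM, and to at most 200.1 CPM in every later library. Gli1, Gli2 (69.3, 80.5 and 118 CPM) and Gli3 followed the same order across these libraries, Ptch1 and Gas1 ran the other way, and the other members did neither. The part of cells with these markers in the D0 levels, and so in each change from D0, was not tested.

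Gli2, the main activator at the start of a response, had D0 and D7 levels that overlapped. It stood at 26.5, 34.0 and 76.8 CPM at D4 and at 86.0, 73.4 and 67.5 CPM at D7, and the change from D0 to D7 was -0.25 ± 0.30 (edgeR adjusted p = 0.51). From D7 its day mean went from 75.6 to 33.9 CPM at D18 and to 4.88 ± 1.86 CPM (SD, n = 3) at D32. Gli2 fell by 1.15 ± 0.31 from D7 to D18 (edgeR adjusted p = 0.0032) and by 2.78 ± 0.34 from D18 to D32 (adjusted p = 2.5e-07).

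Gli3, the main repressor among the Gli proteins, rose from 29.5, 31.7 and 34.6 CPM at D0 to 442, 348 and 362 CPM at D7. At D10 it stood at 118, 115 and 121 CPM, and at D32 at 5.22, 5.73 and 7.31 CPM. The D7 libraries overlapped only those of D4, and D32 lies below every other day. The rise from D0 to D7 was 3.58 ± 0.31 (edgeR adjusted p = 3.9e-10). Gli3 fell by 1.70 ± 0.29 from D7 to D10 (edgeR adjusted p = 4.9e-05), by 2.92 ± 0.30 from D7 to D18 (adjusted p = 1.5e-08) and by 3.04 ± 0.31 from D18 to D32 (adjusted p = 1.6e-08).

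To compare levels between genes, estimated counts were divided by transcript length. Gli1 made up 46.6 ± 0.28% (SD, n = 3) of the 3 Gli genes' counts per kilobase at D0, 2.82% at D4, 0.631% at D7 and 1.15% at D10. Gli3 moved from 11.7% at D0 to 76.9% at D4 and 78.9% at D7, then to 54.8% at D10, and it lay between 49.7 and 60.0% on each later day. Gli2 held most of the remainder from D4 on. Its share was 20.5% at D7 and 44.0% at D10. At D12 the Gli1 share stood at 18.9, 6.92 and 5.08% in the 3 libraries. That 18.9% was the highest Gli1 share in any library after D0.

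**Figure D3:**
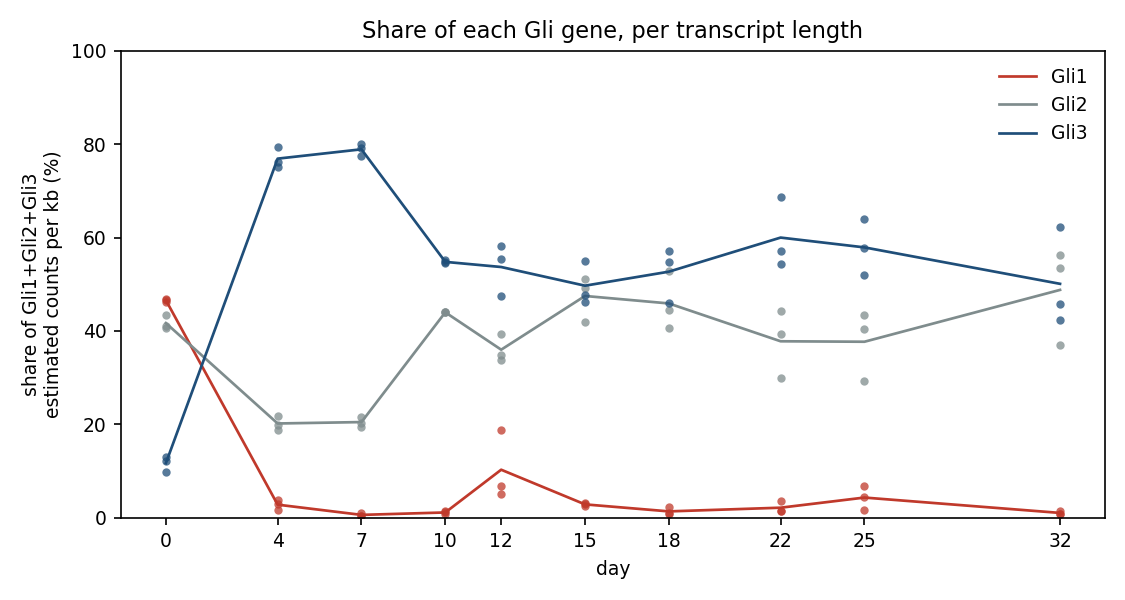
Share of Gli1 (red), Gli2 (grey) and Gli3 (blue) in the summed counts per kilobase of the 3 genes (%, axis from 0 to 100) against day; points are libraries and lines join day means. Gli1 leads with Gli2 at D0, Gli3 holds over 75% at D4 and D7, and the Gli1 points reach 18.9% at D12.

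Per transcript length, Ptch1 and Gli1 parted company. The ratio of Ptch1 to Gli1 lay between 0.814 and 1.68 in the D0 libraries, between 17.2 and 30.3 at D10, between 1.40 and 4.74 at D12 and between 508 and 1086 at D32, where Gli1 rests on 1 or 2 counts a library. TPM are counts per length scaled to the library's total, here without the scaling for library composition. Ptch1 had a mean of 32.4 ± 5.06 TPM at D0 and 32.4 ± 0.916 TPM at D32 (SD, n = 3 each), while Gli1 went from 26.3 to 0.041 TPM. In the deposited CPM, which are scaled for composition, the Ptch1 means were 135 at D0 and 86.5 at D32, and those days did not overlap. Smo was the most abundant member per length from D4 to D25, with 120.0 TPM at D10, and Ptch1 was the most abundant at D0 and D32.

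The changes over 3 spans summarise the course. From D0 to D7, 5 of 8 members changed, against 58.4% of all genes: Smo, Gli3 and Gas1 rose and Ptch1 and Gli1 fell. From D7 to D18, 7 of 8 changed against 49.1% of all genes. Shh, Ptch1 and Hhip rose and Smo, Gli2, Gli3 and Gas1 fell. From D18 to D32, 6 of 8 fell and none rose, where 44.3% of all tested genes changed and 23.7% fell. Shh and Ptch1 were the 2 members that did not pass over that last span. Of the 12 retinal progenitor markers, 11 fell and 0 rose over the same span, and their part in the falls of the members was not tested.

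**Figure D4:**
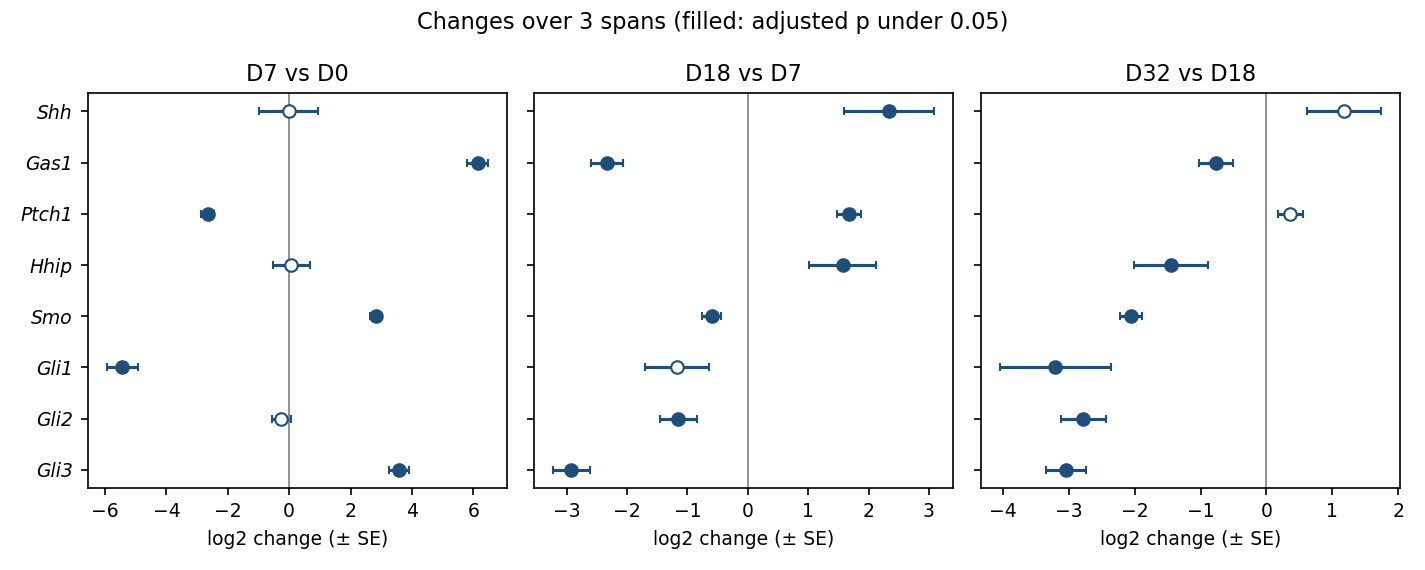
Log2 change (± SE) of the 8 tested members over D0 to D7, D7 to D18 and D18 to D32; filled points passed an adjusted p of 0.05 and open points did not, and each panel has its own scale. Shh and Ptch1 lie right of 0 in the last 2 panels, while both Gli2 and Gli3 lie left of 0 in them.

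Most single steps showed few calls among the members. From D0 to D4, where 51.9% of all genes changed, 6 of 8 members did: Ptch1 (-1.83), Gli1 (-4.16) and Gli2 (-0.96) fell and Smo (2.76), Gli3 (2.92) and Gas1 (4.16) rose. The Gli2 call had edgeR adjusted p = 0.011 and was lost without D0 replicate 3 (adjusted p = 0.086), D4 replicate 1 (0.084) or D4 replicate 2 (0.057), and when only the 6 libraries were fitted (0.10). From D4 to D7, where 42.8% of all genes changed, Gas1 rose (1.98) and Ptch1 (-0.83) and Gli1 (-1.28) fell.

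The D4 libraries differ among themselves in these genes. Replicate 3 held 429 CPM of Gli3 against 134 and 158 CPM in replicates 1 and 2, and 324 CPM of Scube1 against 23.2 and 17.6 CPM. Without it, Gli3 (1.41, edgeR adjusted p = 3.8e-06) and Gli2 (1.34, adjusted p = 0.00039) also rose from D4 to D7, while with it edgeR gave 0.66 (adjusted p = 0.058) and 0.71 (adjusted p = 0.064). With all libraries kept, limma called both, on CPM plus 1 (Gli3 adjusted p = 0.011, Gli2 0.022) and on CPM plus 0.1 (0.011 and 0.025), and edgeR with the library set as a term called Gli2 (0.019). The Gli1 fall from D4 to D7 was lost without any 1 of D4 replicate 1 (adjusted p = 0.055), D4 replicate 3 (0.088), D7 replicate 1 (0.099) and D7 replicate 3 (0.11), and with the library set as a term (0.13). With scaling by library size alone, which shifts the median gene by 0.40 in this step, neither Gli1 (adjusted p = 0.15) nor Ptch1 (0.12) passed, while Smo (0.48, adjusted p = 0.042), Gli2 (0.022) and Gli3 (0.026) did.

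From D7 to D10, where 37.8% of all genes changed, Ptch1 rose and Gli3 and Gas1 (-0.88, edgeR adjusted p = 0.008) fell; the Gas1 call was lost with scaling by library size alone (adjusted p = 0.063). At D12 against D10, where 4.41% of all genes changed, 0 of the 7 members other than Gli1 passed with edgeR, none had an unadjusted p under 0.05, and DESeq2 and limma also called 0. Ptch1 differed by 0.00 ± 0.19 in that step, with 48.1, 44.8 and 44.9 CPM at D10 and 57.1, 45.2 and 36.1 CPM at D12. From D12 to D15, where 7.41% changed and 2.29% fell, Gas1 alone of 7 fell (-0.90, edgeR adjusted p = 0.031), a call lost without D12 replicate 3 (-0.60, adjusted p = 0.21) or any D15 library (0.062 to 0.11), with library set 2 alone on D10 to D25 (0.15) and with scaling by library size alone (0.11).

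At D18 against D15, where 2.89% of all genes changed, 0 of 8 members passed with edgeR, 4 had an unadjusted p under 0.05, DESeq2 called 1 (Gli1) and limma 0. From D18 to D22, where 8.2% changed and 4.44% fell, Smo alone fell (-0.79, edgeR adjusted p = 0.0025). At D25 against D22, where 2.47% changed, 0 of 8 passed with edgeR, 3 had an unadjusted p under 0.05, and DESeq2 and limma called 0. From D25 to D32, where 23.1% changed and 13.8% fell, Smo (-1.03), Gli1 (-3.68), Gli2 (-1.46) and Gli3 (-2.05) fell together, and the Gli1 call was lost with limma on CPM plus 1 (adjusted p = 0.066).

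Markers of other cells were examined beside the Gli1 peak at D12, whose highest library is replicate 1. Ganglion cell markers summed to 738, 513 and 461 CPM in D12 replicates 1, 2 and 3, all 3 libraries holding 10 of 12 markers above 1 CPM on average, against 338 to 481 CPM at D10 and 625 to 1229 CPM at D15. Proliferation markers summed to 3270.1, 3563 and 2930.1 CPM, against 2198 to 2743 CPM at D10. The pigment epithelium list summed to 461, 736 and 488 CPM, and the endoderm list to 44.0, 522 and 9.83 CPM. Ttr belongs to both lists and made up 41.6, 519 and 3.70 CPM of each sum. It thus held most of both replicate 2 sums, which are not separate signals. Among the members, replicate 1 was highest in Gli1, Shh and Ptch1. Replicate 3 was highest in the other 6, among them Hhip (3.35 CPM against 3.05 and 1.53 CPM) and Ihh (1.02 CPM against 0.221 and 0.102 CPM), and the Gli target list below summed to 1404, 1075 and 1477 CPM. That sum includes Ccnd1, the target gene of highest CPM, which is also on the retinal progenitor list. The part of the cells marked by these lists in the D12 levels was not tested.

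Of the 13 ventral and midline genes examined, 7 lay below 1 CPM on average at D12, among them genes known from the floor plate and ventral forebrain. Foxa2 stood at 0.0880, 0.232 and 0.0829 CPM, Nkx2-2 at 0 in all 3 libraries, Nkx2-1 at 0.0551 to 0.137 CPM and Nkx6-1 at 0 to 0.0571 CPM. The other 6 were Foxj1 (5.01, 5.67 and 1.60 CPM), Olig2 (2.80 to 6.08 CPM), Vax2 (3.46 to 4.56 CPM), Pax2 (1.43 to 2.97 CPM), Six6 (165 to 265 CPM) and Rax (69.3 to 152 CPM). The list summed to 288 to 429 CPM, most of it from Six6 and Rax, which the retina also expresses.

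Other genes of the pathway were read from 4 lists, whose counts stand against 58.4% of all genes changed from D0 to D7, 49.1% from D7 to D18 and 44.3% from D18 to D32. Of 6 genes for making, releasing or carrying ligand, 4 rose and 0 fell from D0 to D7 (median 2.09 against 0 for all genes), led by the secreted carriers Scube1 (6.58), Scube3 (3.76) and Scube2 (3.36). Scube3 had the highest CPM of them, at 268 CPM at D7. From D7 to D18, Dhh rose and Scube1 (-2.65) and Scube2 (-1.68) fell (median -0.31 against 0.05 for all genes). From D18 to D32, Dhh rose while Scube2 (-2.37), Scube3 (-2.23) and Disp1 (-1.42), which exports ligand, fell (median -1.09 against -0.01 for all genes).

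Among 11 co-receptor and membrane genes, 6 rose from D0 to D7 (median 0.54). The co-receptors Boc (3.27) and Cdon (3.12) rose, as did Gas1. Cdon had the highest CPM of the list, at 761 ± 183 CPM (SD, n = 3) at D12. From D7 to D18, 2 rose and 4 fell (median -0.08), with Lrp2 (-2.59), Boc (-2.14) and Efcab7 (1.00) moving most. From D18 to D32, 1 rose and 5 fell (median -0.60), led by Evc (-1.88), a ciliary partner of Smo, then Boc (-1.52) and Evc2 (-1.48).

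Of 16 genes that relay the signal inside the cell, 15 were in the table under the listed symbols and tested. From D0 to D7, 7 rose and 3 fell (median 0.32), the largest being Kif3a (1.38), a motor for building cilia, Sufu (1.20), which holds Gli proteins back, and Stk36 (1.05). Csnk1a1, a kinase that phosphorylates Gli proteins, had the highest CPM, with day means of 436 CPM at D0 and 437 CPM at D4. From D7 to D18, 6 rose and 3 fell (median 0.13), with Stk36 (1.01), Kif7 (-1.01) and Sufu (-0.89) moving most. From D18 to D32, 5 rose and 1 fell (median 0.16), with Arl13b (1.75), a ciliary membrane GTPase, Cul3 (0.99) and Kif7 (-0.92) moving most.

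Genes reported elsewhere as Gli targets, of which 9 of 13 passed the filter on low counts, split from D0 to D7 into 4 that rose and 4 that fell (median -0.02), with Olig2 (-4.92), Osr1 (-3.16) and Foxd1 (2.95) moving most. From D7 to D18, 5 rose and 1 fell (median 0.75): Olig2 rose by 6.29, the cell cycle gene Ccnd1 by 3.19 and Foxf1 by 2.00. Ccnd1 had the highest CPM of them, at 966 CPM at D15. From D18 to D32, 0 rose and 5 fell (median -1.63), led by Ccnd1 (-3.88), Olig2 (-3.30) and Mycn (-2.06). Proliferation markers summed to 1814 to 2094 CPM at D18 and to 147 to 171 CPM at D32, and their part in the fall of Ccnd1, Mycn and the Gli genes was not tested.

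In the step from D10 to D12 the 4 lists, with 6, 11, 15 and 9 tested genes, showed 2 calls, where 4.41% of all genes changed. Ccnd1 rose by 1.39 ± 0.30 (edgeR adjusted p = 0.012) and Arl13b fell by 0.69 ± 0.20 (adjusted p = 0.047). From D12 to D15, where 7.41% of all genes changed, the lists showed 2 other calls. Olig2 rose by 2.41 ± 0.35 (edgeR adjusted p = 7.6e-05) and Evc fell by 0.53 ± 0.16 (adjusted p = 0.045). Neither count of calls stands out from those shares of all genes.

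As a description, day means were compared over tested genes that reached 5 CPM on their highest day, with predicted genes and pseudogenes left out. On a log2(CPM + 1) scale those of Gli1 were most like those of Uri1 (Pearson r = 0.962 over 10 day means), Spred1 (0.959), Dtd2 (0.946), Rbm43 (0.940) and Mcl1 (0.937), out of 13020 genes. All 5 were highest at D0 and higher at D12 than at D10 or D15, for example Spred1 at 94.0 CPM at D0 and 62.4, 79.7 and 64.1 CPM at D10, D12 and D15. Among members, r with Gli1 was 0.618 for Gli2, 0.362 for Ptch1 and 0.151 for Gli3. It was -0.072 for Hhip, -0.199 for Smo, -0.433 for Shh and -0.483 for Gas1. For Shh the closest were Btbd1 (0.937), Lmln (0.935), Cdk20 (0.930), Abhd12 (0.924) and Kif13a (0.922), all highest at D32. These correlations share libraries and days. The closest genes were picked by searching all genes compared, so the pattern they share with Gli1 or Shh follows from that choice.

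Single transcripts carried nearly all counts of most members. Shh, Gas1 and Gli1 have 1 annotated transcript each in the table. Smo-001 took 94.4 to 99.2% of Smo counts by day, Gli2-001 95.5 to 98.9% and Gli3-001 93.7 to 98.5%. Hhip-002, a short noncoding transcript, took 3.31 to 23.2% of Hhip counts by day.

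Several members overlap other genes, and the sources used here do not say whether counting used strand, although the library kit was stranded. Gli1 (GRCm38.p4, chr10:127329889-127341589, minus strand) overlaps Arhgap9 on the other strand, which stood at 8.84 to 9.66 CPM at D0 but held only 1, 4 and 0 counts in the D12 libraries, where Gli1 held 107 to 502. Shh (chr5:28456815-28467256, minus strand) overlaps 9530036O11Rik and Gm26894, both at 7 summed counts or fewer on any day. Ptch1 (chr13:63508328-63573598, minus strand) overlaps A930032L01Rik on its own strand, and Gli3 (chr13:15463235-15730026, plus strand) overlaps Gm6556 on the other.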

How the data were processed

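Reads were trimmed with Trimmomatic 0.36 and assigned with kallisto 0.42.4 to GRCm38.p4, per the submitters' processing notes. The authors deposited estimated counts per gene and per transcript, and a gene table of normalised expression signal, whose values are CPM scaled between libraries; edgeR is named in those notes without its settings. CPM were recomputed here with TMM factors, and the median over tested genes of their ratio to the deposited values lay between 0.9834 and 1.02 in every library. How transcript counts were summed to genes, and whether counting used strand, are not given in the sources used here. Of the deposited tables, 9 sample columns (3 in each of 3 tables) that match no listed sample were not used.

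Estimated gene counts were rounded to whole numbers, filtered (filterByExpr, minimum count 10) and fitted in edgeR 4.0.16 under R 4.3.3 with a mean per day over 30 libraries and TMM scaling; p-values were adjusted by Benjamini-Hochberg over 19897 genes at a threshold of 0.05. Alternatives used DESeq2 1.42.0, limma 3.58.1 on deposited CPM with 1 or 0.1 added, other scalings and filters, a replicate block, the library sets, and each library left out. The scripts were tested on simulated data. There the DESeq2 test of change over several days made more false calls than the other methods, and DESeq2 served only as an alternative. A TPM-like level came from deposited transcript counts per length. Levels and counts rest on 3 libraries a day, so p-values measure the spread between these libraries of a single clone. Ratios of low counts carry exact 95% intervals.

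The members, the 14 gene lists and the tests were chosen with earlier results of these data known. All members are named; of each pathway list, the text names the 3 largest changes among those past the threshold over a span and the gene of highest CPM, and for Gli1 and Shh the 5 genes of most similar day means. Promoter windows are from RefSeq on GRCm38.p6, matched by symbol for 7 of 9 members. Some genes of these lists are not reported here by name.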

Additional observations from a re-analysis of the deposited data

How the results depend on the processing

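The 6 counts of members given next stayed within 1.5 times their value under every alternative run; of single steps, D4 to D7 went from 3 to 5 members with limma, and D15 to D18 from 0 to 1 with DESeq2. With each of 30 libraries left out in turn they were 7 of 7 over the 10 days and over the 8 neural retina days, 5 from D0 to D7, 6 to 8 from D7 to D18, 4 to 6 from D18 to D32, and 16 to 21 over the 9 steps (18 with all libraries). Of 3837 refits of single members, 33 lost a call, 31 gained one and none reversed a called change. Most of these refits left out 1 library, usually of a day outside the comparison, and so had little room to change a call. A member called in neither fit counted as unchanged. For Gas1 from D12 to D15, 6 of 41 refits lost the call, and for Hhip from D18 to D32, 5 of 41 did. A replicate block gave 7, 7, 5, 7, 6 and 20 for the 6 counts of members and added Gli2 (adjusted p = 0.031) and Gli3 (0.046) from D4 to D7. The labels do not say that a replicate number is shared between days, and 16 of 45 same-numbered pairs exceeded a correlation of 0.1 for each number (range -0.29 to 0.34, medians 0.02 to 0.07), so the numbers were not taken as pairs; 21 of 30 libraries were closest to their own number, a hint from the data only. Scaling by library size alone shifted the median gene by 0.40 from D4 to D7 and by -0.21 from D0 to D4. Counts over all genes moved more in the small steps: from 878 to between 133 and 2048 (D10 to D12), from 1475 to 695 to 2224 (D12 to D15), from 575 to 242 to 1040 (D15 to D18), from 1631 to 699 at lowest (D18 to D22), from 491 to 75 to 1028 (D22 to D25), and from 8515 to 4583 when only the D4 and D7 libraries were fitted. At under 30 counts a library, Shh and Ihh cannot show small differences.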
